A study of Rattus norvegicus with 4 samples.

Results

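Sterol and fatty acid synthesis was followed through 36 genes, chosen by name, that encode the enzymes, sensors and transcription factors of this pathway. Each probe set annotated with exactly 1 gene symbol from this group was taken. A gene was represented by its brightest probe set, the one with the highest mean log2 signal over the 4 arrays, and its other probe sets were kept beside it. This gave 50 probe sets for 34 genes, of which 14 had more than 1, among 10411 named genes on the array. Hmgcs1 and Stard4 had no such probe set and their expression was not analysed here. All 34 brightest probe sets passed the filter on dim signals, as did those of 7101 named genes in all.

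The cells were ventricular myocytes of neonatal rats, heart muscle cells that beat in primary culture. Control cells grew in uncoated dishes, and the other group grew in dishes coated with fibronectin, a matrix glycoprotein recognised by integrins. Both groups had 24 h in 10% serum followed by 48 h without serum, so the controls shared the serum withdrawal. Total RNA of 2 samples per group was hybridised to 1 array each. The labels name no separate cultures, so the p-values measure only how far these samples spread, and that spread may be technical.

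Cells build cholesterol from acetyl-CoA by way of mevalonate, farnesyl diphosphate, squalene and lanosterol, and they build fatty acids from the same acetyl-CoA by way of malonyl-CoA. Most of these genes are targets of the sterol regulatory element-binding proteins, which are carried from the endoplasmic reticulum by the escort protein Scap when membrane sterol is low and held back by the Insig proteins when it is high. Released by proteolysis, these factors bind promoters together with NF-Y and Sp1. In heart muscle cells, which burn fatty acids as their main fuel, the pathway serves chiefly to supply membranes and to adjust the make-up of their lipids.

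The arrays differed in ways that touch every value below. Median deposited signal ran from 90.9 to 111 over the arrays, and correlations between arrays over the 9519 tested probe sets ran from 0.775 to 0.910, fibronectin replicate 2 standing apart at 0.794 or less. The Gapdh control transcript gave 3' to 5' signal ratios of 1.64 and 1.15 on control replicates 1 and 2 and of 6.02 and 3.52 on fibronectin replicates 1 and 2. The same ratio for beta-actin was 1.46 and 1.40 on the controls and 13 and 6.29 on fibronectin. Hexokinase, another control transcript, gave 3.77 and 4.12 on the controls and 3.11 and 7 on fibronectin, with overlap. The Gapdh and beta-actin ratios moved with the coating, and their part in the results was not tested. An exact permutation test of 2 arrays against 2, two-sided, can give no p below 0.333.

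Most of the pathway read higher on fibronectin, but no gene passed the test. Of the 34 genes, 32 had a positive log2 difference between fibronectin and control, against 51.4% of all tested genes. The median difference was 0.70, with the middle of the list spanning 0.53 to 1.20, against a median of 0.02 over all tested genes. Both fibronectin arrays exceeded both controls for 19 genes, where 20.6% of all tested genes did so. After normalization only Insig2 lay below both controls on both fibronectin arrays, where 17.2% of all tested genes did so. On the deposited scale, without further normalization, 31 genes were above 0, the median was 0.79, and 18 genes exceeded the controls without overlap, where 22% of all tested genes did so. On that scale 0 genes lay below the controls without overlap, where 10.6% of all tested genes did.

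In limma's test, adjusted by the Benjamini-Hochberg method over all 9519 tested probe sets, 0 members passed, as did 0% of all tested genes, and the lowest adjusted p of a member was 0.684. At an unadjusted p under 0.05 limma gave 8 members higher and 0 lower, where 3.03% of all tested genes were higher and 2.65% lower. For 9 members the arrays did not overlap and the log2 difference reached 1 or more, as was so for 3.55% of all tested genes. Leaving out control replicate 1 gave a median of 0.41 for the list, and leaving out control replicate 2 gave 1.08. Leaving out fibronectin replicate 1 gave 1.12, and leaving out fibronectin replicate 2 gave 0.50. In the fit without fibronectin replicate 1, Fdps passed limma's threshold with an adjusted p of 0.0479, among 337 probe sets that passed there in all. That fit has 1 fibronectin array, which is assumed to vary as the 2 controls do.

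**Figure D1:**
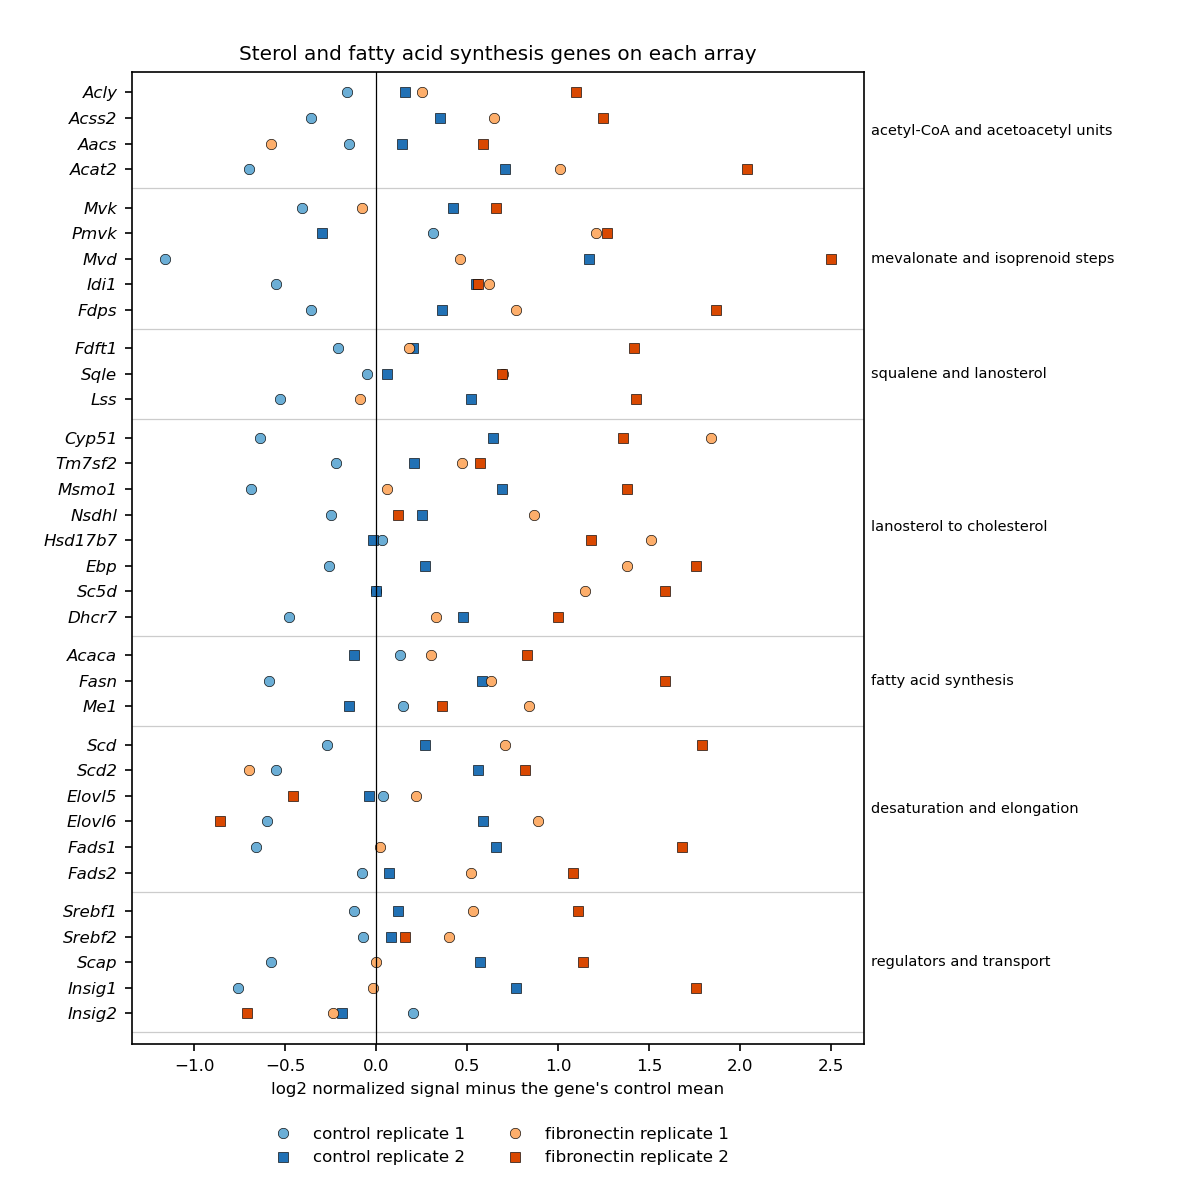
Log2 normalized signal of each of the 34 genes on each array, minus the mean of that gene's 2 control arrays, with genes in rows ordered by pathway step and 1 point per array. Fibronectin replicate 2 was the highest of the 4 arrays for 24 genes, against 32.8% of all tested genes. Control replicate 1 was the lowest for 24, against 21.9%.

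The controls were themselves apart along this pathway. Control replicate 2 read above control replicate 1 for 27 of the 34 genes, with a median difference of 0.53, whereas 47.7% of all tested genes read higher on control replicate 2 and their median was -0.03. Fibronectin replicate 2 read above fibronectin replicate 1 for 24 genes, with a median of 0.59, against 48.6% of all tested genes and a median of -0.03. The second array exceeded the first in both groups for 21 of the 34 genes and for 28.3% of all tested genes. The gap between the control arrays was larger than the difference between the group means for 14 of the 34 genes, against 47.1% of all tested genes.

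The size of the coating difference therefore changed with the arrays compared. Fibronectin replicate 1 exceeded control replicate 1 for 31 genes, with a median of 0.74, but control replicate 2 for only 22, with a median of 0.28, which is less than the 0.53 between the controls. Fibronectin replicate 2 exceeded control replicate 2 for 30 genes, with a median of 0.90, and control replicate 1 for 31, with a median of 1.31. Over all tested genes these 4 comparisons had medians from 0.00 to 0.06. Within each group the array with the higher Gapdh and beta-actin 3' to 5' ratios, replicate 1, was the one on which the pathway read lower, whereas the hexokinase ratio was higher on replicate 2 of each group. On control replicates 1 and 2 the ratios were 1.64 and 1.15 for Gapdh and 1.46 and 1.40 for beta-actin, and each group holds only 1 pair of arrays. Between the groups, the Gapdh and beta-actin ratios and the median of the pathway were all higher on fibronectin. The part of these ratios in the result was not tested.

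**Figure D2:**
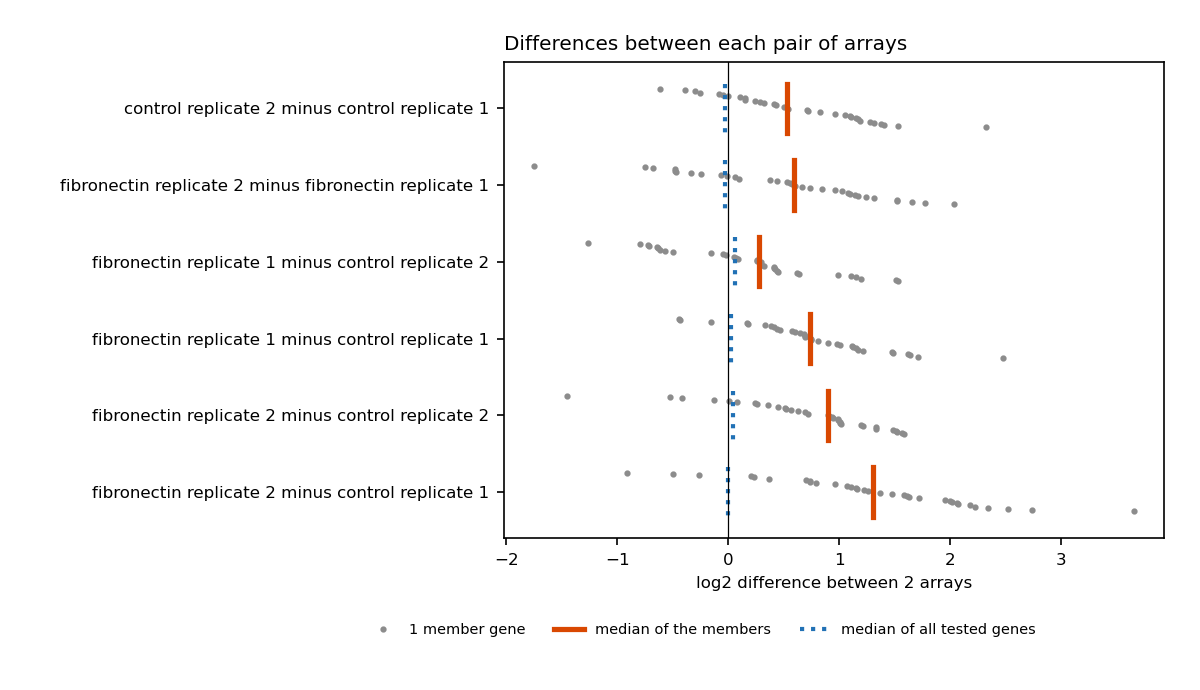
Log2 differences of the 34 genes for each of the 6 pairs of arrays; each grey point is 1 gene, the solid bar is the median of the 34 and the dotted bar the median of all tested genes. The medians of the 34 genes run from 0.28 to 1.31, whereas those of all tested genes stay between -0.03 and 0.06, and the 2 controls differ by 0.53.

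The genes fell into many orders of the arrays, of which the most common are given here. Each of the other orders held 4 genes or fewer. In 10 genes control replicate 1 was lowest, followed by control replicate 2, fibronectin replicate 1 and fibronectin replicate 2. That order was found in 6.66% of all tested genes. The 10 were Acly, Acss2, Acat2, Fdps, Tm7sf2, Ebp, Fasn, Scd, Fads2 and Srebf1. In a further 9 genes fibronectin replicate 1 lay between the controls and fibronectin replicate 2 on top, an order found in 6.38% of all tested genes. Those were Mvk, Mvd, Fdft1, Lss, Msmo1, Dhcr7, Fads1, Scap and Insig1. Sterol enzymes and fatty acid enzymes stand in both sets, with Fads1 the only fatty acid enzyme of the second, and whether the order followed the branch was not tested.

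The supply of acetyl-CoA and acetoacetyl units read higher on fibronectin for 3 of 4 genes without overlap, with a median log2 difference of 0.81 and no gene past limma's threshold. For this and the following steps, the background is the 20.6% of all tested genes higher without overlap and the 17.2% lower, after normalization. Acat2, the cytosolic thiolase that joins 2 acetyl-CoA into acetoacetyl-CoA, had deposited signals of 143 and 295 on control replicates 1 and 2 and of 537 and 727 on fibronectin replicates 1 and 2. The groups did not overlap, but control replicate 2 lay nearer in log2 to fibronectin replicate 1 than to control replicate 1. After normalization its mean log2 signal was 7.73 ± 1.00 on control and 9.26 ± 0.73 on fibronectin (SD, n = 2 each), a difference of 1.52 (SE 0.55, limma adjusted p = 0.726) or 2.87-fold. Acss2, which makes acetyl-CoA from acetate, had deposited signals of 343 and 428 on the controls and 812 and 795 on fibronectin. On that scale its fibronectin arrays lay close together above both controls, whereas after normalization they were 633 and 960.2 against 315 and 517. The log2 difference of Acss2 was 0.95 (SE 0.38, limma adjusted p = 0.754), without overlap.

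Acly, which splits cytosolic citrate into acetyl-CoA and oxaloacetate, had deposited signals of 454 and 429 on the controls and 699.7 and 828 on fibronectin. Its log2 difference was 0.67 (SE 0.38), without overlap, and 0.25 without fibronectin replicate 2. Aacs, which activates acetoacetate, was the exception in this step. Its deposited signals of 166 and 164 on the controls lay between the 124 and 214 of the fibronectin arrays. The log2 difference of Aacs was 0.01 (SE 0.50), so its fibronectin arrays straddled the controls.

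The mevalonate steps read higher on fibronectin for all 5 measured genes, with a median log2 difference of 1.23. After normalization 3 of the 5 did not overlap, and on the deposited scale 2 did not. Fdps, which condenses the isoprenoid units into farnesyl diphosphate, had deposited signals of 906 and 1177 on the controls and 2229 and 4133 on fibronectin. Each fibronectin array was above each control, and fibronectin replicate 2 was far above the rest. Its mean log2 signal was 10.07 ± 0.51 on control and 11.39 ± 0.78 on fibronectin (SD, n = 2 each), and its difference of 1.32 (SE 0.42, limma adjusted p = 0.718) ran from 0.77 to 1.87 with 1 array left out. Pmvk, which adds the second phosphate to mevalonate, had deposited signals of 159 and 85.5 on the controls and 330.2 and 236 on fibronectin. For Pmvk control replicate 2 was the lowest array, unlike most of the pathway, and the log2 difference was 1.23 (SE 0.42) or 2.35-fold.

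Mvd, which decarboxylates its substrate to give isopentenyl diphosphate, spread most widely within groups. Its deposited signals were 41.3 and 157 on the controls and 119 and 364 on fibronectin, so the groups overlapped. The log2 difference of Mvd was 1.47 (SE 0.91), and 0.31 without control replicate 1. Idi1, the isomerase that makes the reactive allylic unit, had normalized signals of 207 and 447 on the controls and 467 and 449 on fibronectin. On that scale only control replicate 1 stood apart, and without it the log2 difference of Idi1 went from 0.59 to 0.04. Its deposited signals, 225.5 and 377 on the controls and 591 and 362 on fibronectin, overlapped, with fibronectin replicate 1 alone high. Mvk, mevalonate kinase, had deposited signals of 111 and 158 on the controls and 141 and 183 on fibronectin, which interleaved, with a log2 difference of 0.29 (SE 0.51).

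The entry into sterols proper, from farnesyl diphosphate to lanosterol, read higher on fibronectin for its 3 genes by 0.67 to 0.81 on the log2 scale. After normalization 1 of the 3 was higher without overlap, where 20.6% of all tested genes were. After normalization Sqle, the monooxygenase that makes the epoxide of squalene, had the tightest groups of the pathway. Its deposited signals were 154 and 133 on the controls and 283 and 199 on fibronectin, so its fibronectin arrays stood further apart there. Its normalized signals were 141 and 152 on the controls and 237 and 235 on fibronectin, a log2 difference of 0.69 (SE 0.39, limma adjusted p = 0.771) that ran from 0.63 to 0.75 with 1 array left out. Fdft1, squalene synthase, had deposited signals of 262 and 274 on the controls and 389.6 and 612 on fibronectin. On the normalized scale its fibronectin replicate 1, at 316, fell just below control replicate 2 at 320.5, so that its separation held only on the deposited scale. Lss, lanosterol synthase, had deposited signals of 113 and 189 on the controls and 161 and 329 on fibronectin, and overlapped on both scales.

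The conversion of lanosterol to cholesterol held the members with the highest differences, Cyp51 and Ebp, while the mevalonate steps had the higher median. All 8 measured genes read higher on fibronectin, with a median log2 difference of 1.03, and 5 of them did not overlap. Cyp51, the lanosterol demethylase that opens this stretch, had deposited signals of 333 and 620.0 on the controls and 2110.4 and 1052 on fibronectin. It was among the 9 members of 34 that were highest on fibronectin replicate 1, as were 26.1% of all tested genes. Its mean log2 signal was 8.90 ± 0.90 on control and 10.50 ± 0.34 on fibronectin (SD, n = 2 each), and the difference of 1.60 (SE 0.45, limma adjusted p = 0.684) or 3.04-fold ran from 0.96 to 2.24 with 1 array left out. Its other probe set gave 94.2 and 174 on the controls against 481 and 709 on fibronectin, a log2 difference of 2.12 (SE 0.55).

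Ebp, the isomerase that shifts the double bond in the sterol nucleus, had deposited signals of 55.6 and 63.9 on the controls and 176 and 169.5 on fibronectin. Both groups were tight on that scale, and the log2 difference after normalization was 1.57 (SE 0.54, limma adjusted p = 0.718) or 2.96-fold. Sc5d, the desaturase that follows, had deposited signals of 112 and 91.1 on the controls and 273 and 255 on fibronectin. After normalization its controls were alike at 103 each, against 228 and 309 on fibronectin, a log2 difference of 1.37 (SE 0.42, limma adjusted p = 0.718). Hsd17b7, a ketoreductase of sterol demethylation, had deposited signals of 50.9 and 41.3 on the controls and 138 and 95.5 on fibronectin. Its log2 difference was 1.34 (SE 0.66), and it ran from 1.18 to 1.5 with 1 array left out. These 3 genes kept a difference of more than 1 whichever array was left out. The controls of Hsd17b7 and Ebp were dim, with mean log2 signals of 5.46 and 5.87 against 6.80 and 7.44 on fibronectin. Both passed the filter on dim signals with the help of their brighter fibronectin arrays, Hsd17b7 only just, at a signal rank of 42.1%. Their place among the tested genes was therefore not independent of the difference.

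The remaining genes of this stretch differed less. Tm7sf2, a sterol reductase, had deposited signals of 172 and 186 on the controls and 309 and 228 on fibronectin, without overlap, and a log2 difference of 0.52 (SE 0.38). Msmo1, the sterol methyl oxidase, had deposited signals of 346 and 685 on the controls and 679 and 1146 on fibronectin. On that scale control replicate 2 matched fibronectin replicate 1, whereas after normalization control replicate 2 was higher, at 825 against 532. The log2 difference of Msmo1, 0.72 (SE 0.57), became 0.03 without control replicate 1. Dhcr7, the reductase that completes cholesterol, had deposited signals of 103 and 161 on the controls and 194 and 222 on fibronectin, free of overlap only on that scale. Nsdhl, a sterol dehydrogenase, had deposited signals of 66.7 and 77.2 on the controls and 146 and 76.0 on fibronectin, so that fibronectin replicate 1 alone was high.

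The promoters of the 4 genes with the largest differences without overlap, and of Insig2, the only member lower without overlap after normalization, show which shared motifs lie before their starts. Each is the stretch of 250 bases before the annotated start in RefSeq on the GRCr8 build, in lower case. Capitals mark the NF-Y box CCAAT and the Sp1 box GGGCGG, or their reverse complements.
Cyp51, chr4:30991443-30991692, plus strand: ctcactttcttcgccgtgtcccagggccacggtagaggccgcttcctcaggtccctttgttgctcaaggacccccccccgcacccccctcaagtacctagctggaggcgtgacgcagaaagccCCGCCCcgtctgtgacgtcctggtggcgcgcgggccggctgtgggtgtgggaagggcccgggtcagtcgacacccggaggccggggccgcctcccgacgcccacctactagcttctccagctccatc
Ebp, chrX:16971212-16971461, plus strand: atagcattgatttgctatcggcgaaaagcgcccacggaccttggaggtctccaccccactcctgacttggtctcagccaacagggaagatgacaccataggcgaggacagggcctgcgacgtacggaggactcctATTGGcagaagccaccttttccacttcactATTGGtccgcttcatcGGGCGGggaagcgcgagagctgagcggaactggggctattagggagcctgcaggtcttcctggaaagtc
Acat2, chr1:50100590-50100839, plus strand: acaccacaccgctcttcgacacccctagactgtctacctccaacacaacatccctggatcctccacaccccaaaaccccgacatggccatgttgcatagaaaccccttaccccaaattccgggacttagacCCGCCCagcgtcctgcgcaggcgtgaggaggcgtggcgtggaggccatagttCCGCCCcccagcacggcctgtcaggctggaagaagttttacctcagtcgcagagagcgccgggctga
Sc5d, chr8:51538278-51538527, minus strand: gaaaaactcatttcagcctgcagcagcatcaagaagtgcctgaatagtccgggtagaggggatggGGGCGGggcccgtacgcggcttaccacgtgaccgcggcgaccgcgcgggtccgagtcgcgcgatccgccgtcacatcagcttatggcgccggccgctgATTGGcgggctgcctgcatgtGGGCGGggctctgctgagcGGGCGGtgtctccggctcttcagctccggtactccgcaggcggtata
Insig2, chr13:35040099-35040348, minus strand: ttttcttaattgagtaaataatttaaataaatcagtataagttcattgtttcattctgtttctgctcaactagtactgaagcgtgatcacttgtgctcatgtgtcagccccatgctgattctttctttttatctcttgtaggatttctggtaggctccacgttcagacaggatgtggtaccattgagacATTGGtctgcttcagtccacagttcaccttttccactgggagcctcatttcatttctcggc
In Cyp51 and Acat2 the stretch held at least 1 Sp1 box and no NF-Y box. Those of Ebp and Sc5d held both, and that of Insig2 held an NF-Y box and no Sp1 box. Whether the annotated starts, that of Insig2 among them, are the ones used in these cells was not analysed here.

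Promoter windows of 300 bases, from 250 before to 50 after the start, were found for 29 of the 36 genes, 28 of them measured on the arrays. The NF-Y box CCAAT, on either strand, lay in the window of 21 of the 29 genes, or 72.4%, against 37.5% of all 33469 windows and 37.1% of the windows of genes named on the array. The Sp1 box GGGCGG lay in 22, or 75.9%, against 33.1% of all windows and 58.5% of those of genes named on the array. The E-box CACGTG lay in 4, or 13.8%, against 6.42% and 8.67%. The sterol response element core was searched as TCACNCCAC, and 0 of the 29 genes held it, against 1.12% of all windows, which says only that these letters are not in these windows. Median GC content was 64.5% in the members' windows, 60% in those of genes named on the array and 51.7% in all windows. The measured genes with an NF-Y box had a median log2 difference of 0.70 (n = 20) and those without of 0.74 (n = 8). For the Sp1 box the medians were 0.81 (n = 21) and 0.05 (n = 7), given as a description without a test.

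Fatty acid synthesis itself read higher on fibronectin in its 3 genes without overlap after normalization, by 0.56 to 1.12 on the log2 scale. Fasn, the synthase that builds palmitate, had deposited signals of 323 and 555 on the controls and 884 and 1171 on fibronectin. After normalization control replicate 2 at 671 and fibronectin replicate 1 at 696 were nearly equal. The log2 difference of Fasn was 1.12 (SE 0.48, limma adjusted p = 0.762) or 2.17-fold, and 0.53 without control replicate 1. Acaca, the acetyl-CoA carboxylase that makes malonyl-CoA, had deposited signals of 345 and 230.3 on the controls and 445 and 413 on fibronectin, with a log2 difference of 0.56 (SE 0.36). Me1, the malic enzyme that supplies NADPH, had deposited signals of 226 and 147 on the controls and 417 and 203 on fibronectin, which overlapped on that scale only. The other tested probe set of Me1 went the opposite way, as given below.

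Desaturation and elongation of fatty acids was mixed, with a median log2 difference of 0.43 over 6 genes. Of the 6, 2 were higher without overlap, where 20.6% of all tested genes were. Scd, a delta-9 desaturase that makes oleate, had deposited signals of 109 and 128 on the controls and 234 and 339 on fibronectin. Its fibronectin arrays were both well above its controls, with a log2 difference of 1.25 (SE 0.49, limma adjusted p = 0.753) or 2.38-fold. Scd2, its paralog, had deposited signals of 718 and 1226 on the controls and 767 and 1547 on fibronectin. Scd2 followed the replicate number rather than the coating, with a log2 difference of 0.05 (SE 0.55). The files do not show whether probes of these related genes share hybridisation.

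Fads2, the delta-6 desaturase of polyunsaturated fatty acids, had deposited signals of 97.1 and 89.0 on the controls and 153 and 171 on fibronectin, a log2 difference of 0.80 (SE 0.48) without overlap. Fads1, the delta-5 desaturase, had deposited signals of 192 and 369 on the controls and 346 and 738 on fibronectin, again higher on the second array of each group. The log2 difference of Fads1 was 0.85 (SE 0.63), and 0.02 without fibronectin replicate 2. Elovl5, which extends polyunsaturated chains, had deposited signals of 676 and 494 on the controls and 907 and 359 on fibronectin, a log2 difference of -0.12 (SE 0.35). Elovl6, which extends palmitate to stearate, had deposited signals of 60.9 and 109 on the controls and 176 and 40.9 on fibronectin, a log2 difference of 0.02 (SE 0.80). For both elongases the fibronectin arrays lay on either side of the controls, as they did for Aacs and Scd2 after normalization.

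The regulators of the pathway had a median log2 difference of 0.57 over 5 genes. After normalization 2 were higher and 1 lower without overlap, where 20.6% and 17.2% of all tested genes were. Srebf1, whose products chiefly drive fatty acid genes, had deposited signals of 290.2 and 269 on the controls and 520.3 and 507 on fibronectin. The arrays of each group were close together on that scale, but after normalization the fibronectin arrays were 415 and 621 against 266 and 314. The log2 difference of Srebf1 was 0.81 (SE 0.36, limma adjusted p = 0.762) or 1.76-fold, without overlap. Srebf2, whose product chiefly drives sterol genes, had deposited signals of 658 and 558 on the controls and 1066 and 590.4 on fibronectin, a log2 difference of 0.28 (SE 0.30). It was free of overlap after normalization and not on the deposited scale. Scap, the escort protein, had deposited signals of 148 and 256 on the controls and 237 and 357 on fibronectin, with a log2 difference of 0.57 (SE 0.55).

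The mean differences of the retention proteins had opposite signs. Insig1, itself a target of the pathway's factors, had deposited signals of 241 and 530.0 on the controls and 461 and 1078 on fibronectin, a log2 difference of 0.86 (SE 0.67) with overlap. Without fibronectin replicate 2 it was -0.03. Insig2 had deposited signals of 125 and 77.9 on the controls and 88.0 and 58.5 on fibronectin, which overlapped. After normalization both of its fibronectin arrays, at 84.3 and 61.2, lay below control replicate 2 at 87.2, replicate 1 only just. The log2 difference of Insig2 was -0.48 (SE 0.60). The difference between Insig1 and Insig2 was not tested.

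**Figure D3:**
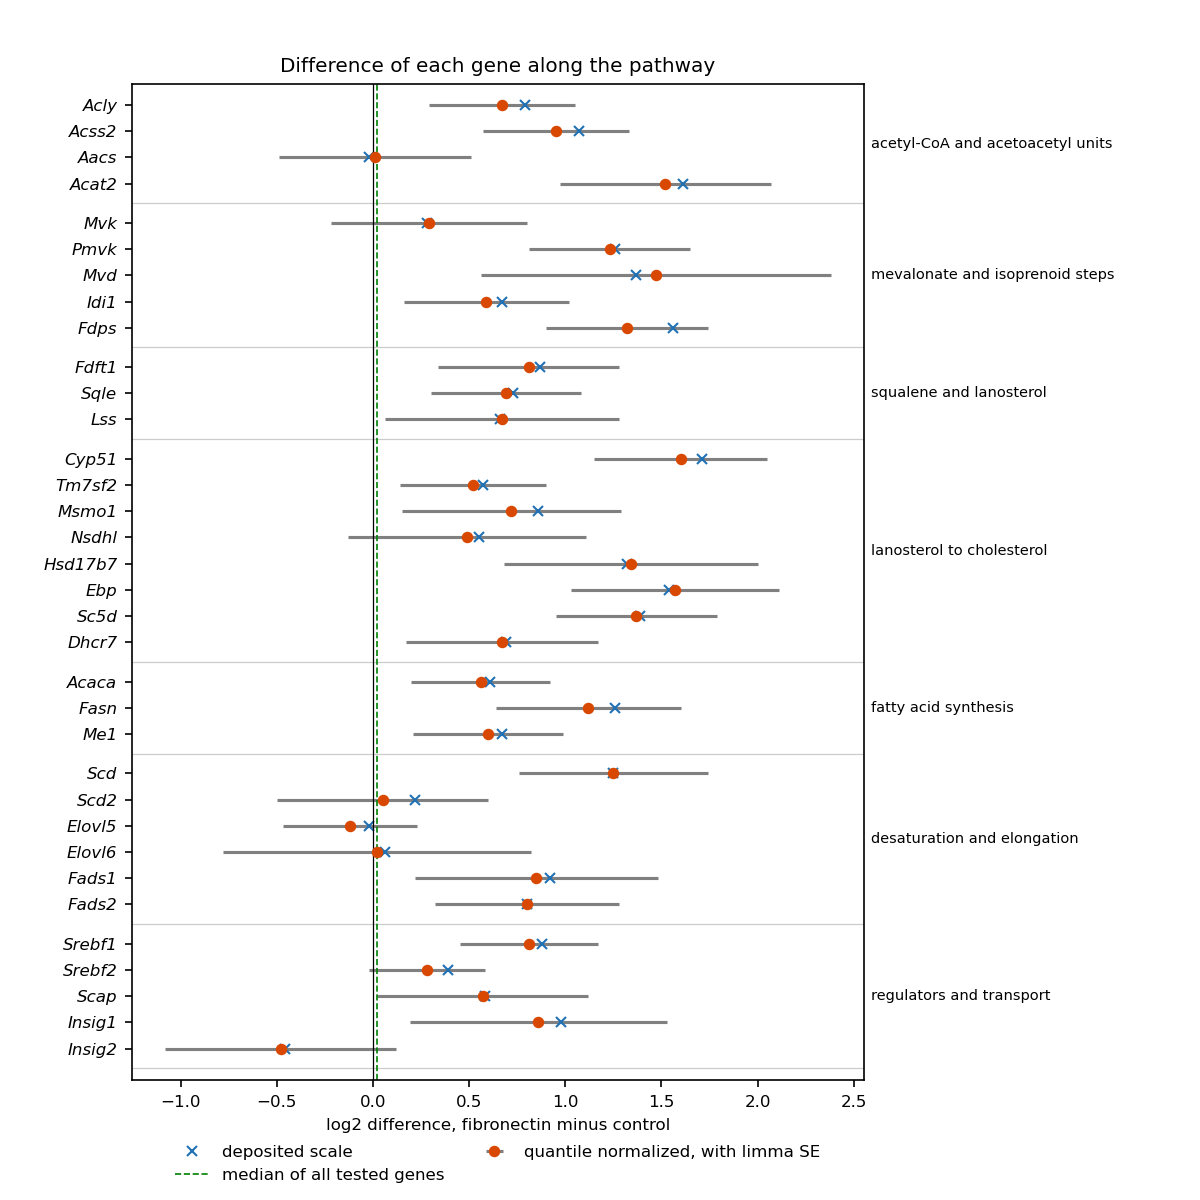
Log2 difference between fibronectin and control for each of the 34 genes, ordered by pathway step; circles with bars are quantile normalized values with limma's standard error, crosses are the deposited scale, and the dashed line is the median of all tested genes at 0.02. Circles run from -0.48 for Insig2 to 1.60 for Cyp51, and no gene passed limma's adjusted threshold.

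A second look at the same transcripts came from the other probe sets of 14 genes. There were 16 of these, of which 10 were bright enough to be tested. Of the 10, 5 differed upwards and 5 downwards. In the 10 genes with more than 1 tested probe set the median log2 difference was 0.70 for the brightest and 0.17 for the next brightest, and 4 of the 10 changed sign. Among all 850 named genes with more than 1 tested probe set 44.0% changed sign, with medians of -0.13 for the brightest and -0.28 for the next. The next brightest probe set had the lower difference in 7 of the 10 genes, or 70.0%, against 58.1% of those 850 genes.

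The other probe sets of Cyp51 and Idi1 kept the direction of the brightest without overlap, with log2 differences of 2.12 and 0.69. Those of Mvk, Fdft1 and Fasn read 0.49, 0.38 and 0.49 with overlap. Sc5d gave -0.16 in its other probe set, where control replicate 2 alone was high at a deposited signal of 157 against 36.5, 50.7 and 85.7 on the other arrays. Me1 gave -0.55, with deposited signals of 224 and 289 on the controls and 234 and 144 on fibronectin, which overlapped. After normalization this probe set read 205 and 340 on the controls and 198 and 164 on fibronectin, lower without overlap. Srebf1 gave -0.05. The widest disagreement was that of Scd2, where a tested probe set had deposited signals of 158 and 309 on the controls and 40.9 and 125 on fibronectin, a log2 difference of -1.63 without overlap. Elovl5 was lower in both of its probe sets, at -0.12 and -0.92.

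Another 6 probe sets were left out as dim, 5 of them at the floor of 4.55 on at least 1 array, so that the size of their differences is not measured. They included a probe set of Acaca with deposited signals of 57.1 and 93 on the controls and 32.8 and 15.6 on fibronectin, the reverse of its brighter probe set. That of Hsd17b7 had 32.8 and 48.7 on the controls and 39.3 and 9.74 on fibronectin, with overlap. Its mean and that of Srebf2 were also lower on fibronectin, the reverse of their brighter probe sets. The means of the dim probe sets of Lss and Scd2 were higher on fibronectin, and that of Mvk was at the floor on every array. Where on the transcripts the probes lie was not analysed here. The 3' to 5' ratios given above differed between the groups, and their part in these disagreements was not tested.

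**Figure D4:**
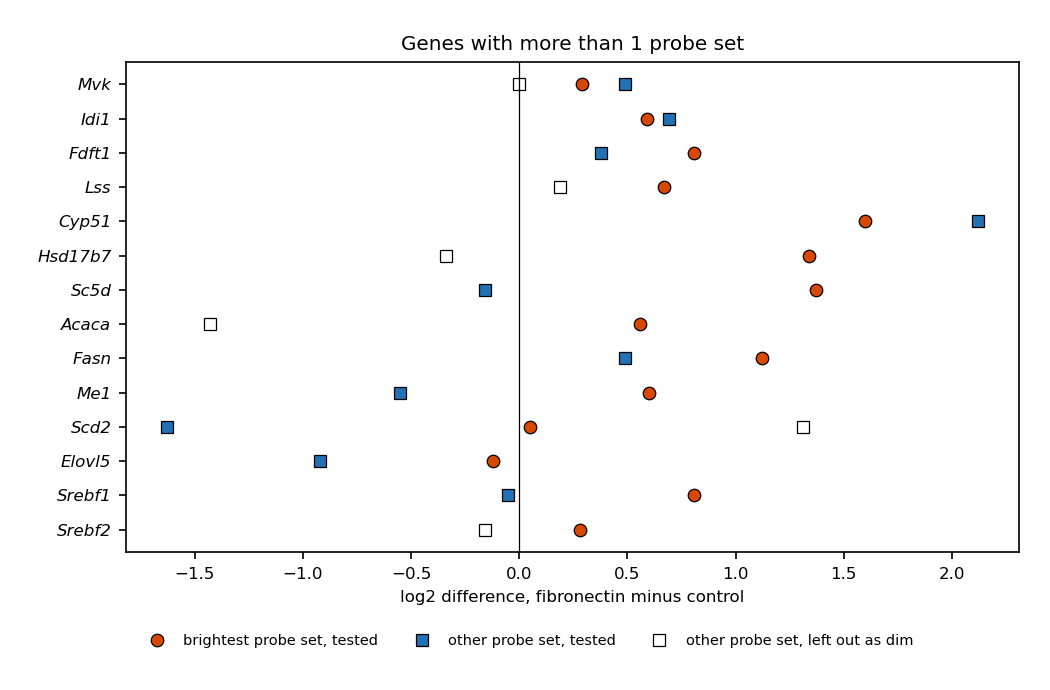
Log2 difference between fibronectin and control for every probe set of the 14 genes with more than 1; circles are the brightest probe set of each gene, filled squares are other tested probe sets and open squares those left out as dim. The other tested probe sets of Sc5d, Me1, Scd2 and Srebf1 lie on the opposite side of 0 from the brightest.

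Neighbouring parts of lipid metabolism were read in 6 further lists, whose medians after normalization ran from -0.48 to 0.27. The background for their counts is the 20.6% of all tested genes that were higher without overlap and the 17.2% that were lower. Genes that supply NADPH and citrate had a median log2 difference of 0.27, with 6 of 7 tested genes above 0 and 2 of 7 higher without overlap. On the deposited scale their median was 0.54, against 0.09 over all tested genes, with 7 of 7 above 0 and 5 higher without overlap, where 22% of all tested genes were. Taldo1, the transaldolase of the pentose phosphate pathway, differed by 0.93 (SE 0.31, limma adjusted p = 0.718), and Idh1, the cytosolic isocitrate dehydrogenase, by 0.48 (SE 0.30). Genes that draw isoprenoids off to other products had a median of -0.16 over 7 tested genes, 3 higher and 1 lower without overlap. Among them Coq7, of ubiquinone synthesis, differed by 0.50, Dhdds, of dolichol synthesis, by 0.49, and Fnta, a subunit of protein farnesyltransferase, by 0.41.

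Genes of sterol transport, storage and sensing had a median of 0.04 over 11 tested genes, 3 higher and 3 lower without overlap, near the shares of all tested genes. Cyp27a1, the sterol 27-hydroxylase, differed by 1.03 (SE 0.47), Nr1h2, an oxysterol receptor, by -0.84 (SE 0.45), and Npc2, a lysosomal sterol carrier, by 0.50 (SE 0.25). Glycerolipid and phospholipid synthesis had a median of 0.01 over 14 tested genes, 4 higher and 2 lower without overlap, also near those shares. Ptdss1, phosphatidylserine synthase, differed by 1.12 (SE 0.35, limma adjusted p = 0.718), Agpat2 by 0.93 (SE 0.49) and Pcyt2 by 0.50 (SE 0.35). Activation and use of fatty acids had a median of 0.02 over 10 tested genes, 4 higher and 1 lower. There Acbd3 differed by 0.89 and the acyl-CoA synthetases Acsl3 and Acsl5 by -0.87 and 0.73.

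Other regulators had a median of -0.48 over 11 tested genes, 0 higher and 2 lower without overlap, the latter near the share of all tested genes. Sp1, which acts beside the sterol regulatory factors, differed by -0.89 (SE 0.34, limma adjusted p = 0.739), with log2 signals of 8.77 and 9.02 on the controls and 8.04 and 7.98 on fibronectin. Prkag1, a subunit of the AMP-activated kinase that restrains lipid synthesis, differed by -0.65 (SE 0.36). Of the tested genes in these 6 lists, 0 passed limma's adjusted threshold, as in all tested genes, and at an unadjusted p under 0.05 limma gave 3 higher and 1 lower, where 3.03% and 2.65% of all tested genes were. Whether the lists differ from the synthesis genes was not tested.

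**Figure D5:**
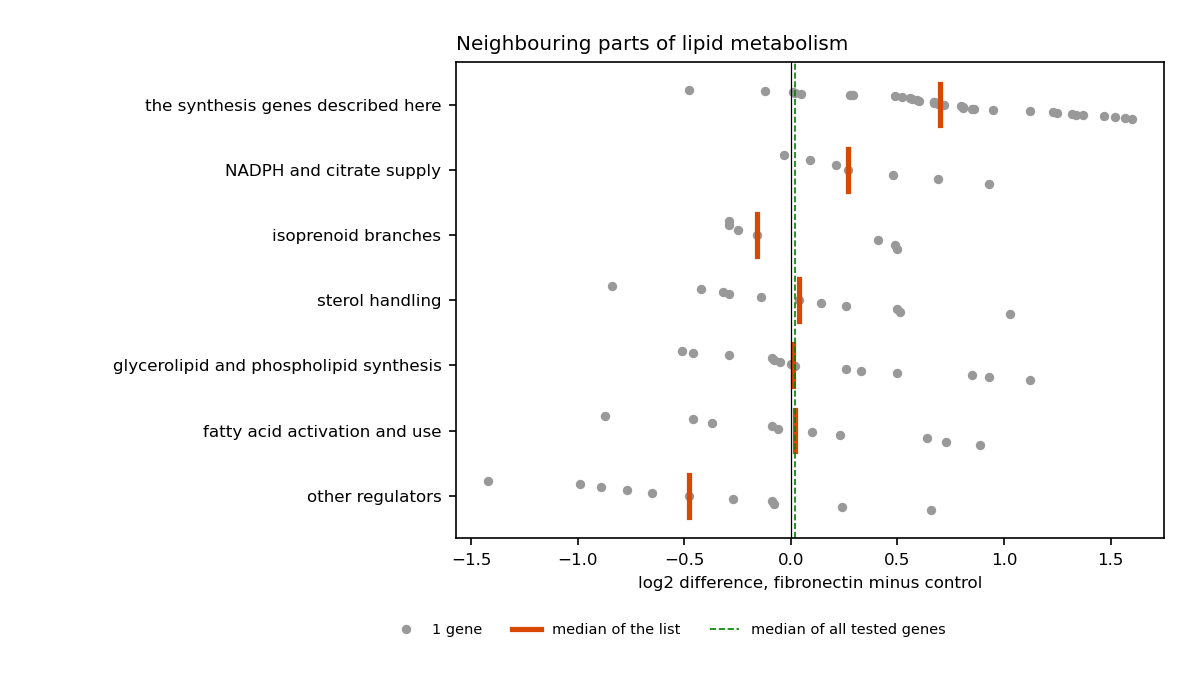
Log2 difference between fibronectin and control for the tested genes of the synthesis pathway and of 6 neighbouring lists; each grey point is 1 gene, the solid bar is the median of the list and the dashed line the median of all tested genes at 0.02. The synthesis genes have a median of 0.70 and the 6 lists have medians from -0.48 to 0.27.

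The culture read as ventricular muscle with fibroblasts. All 8 measured myocyte markers were tested, and their summed normalized signal was 54680 and 42790 on the controls and 52750 and 50270 on fibronectin, which overlapped. All 10 fibroblast markers were measured and 6 lay lower on fibronectin without overlap, where 17.2% of all tested genes did, while S100a4 lay higher by 0.51 without overlap. Their summed signals, 41450 and 56180 on the controls and 30910 and 41470 on fibronectin, overlapped narrowly. In 6 tested leukocyte markers 3 lay lower without overlap, against the same 17.2%, and the summed signal of all 10 measured was 2159 and 2714 on the controls and 1457 and 1796 on fibronectin. In bulk RNA fewer cells of a type and less RNA per cell cannot be told apart, and the part of these cells in the results was not tested. Smooth muscle sums were 3600 and 8843 on the controls and 4072 and 6755 on fibronectin, and endothelial sums 587 and 530.0 against 663 and 464, both with overlap.

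Neural and Schwann cell markers were dim, with 2 of 8 tested. Both were higher on fibronectin without overlap, where 20.6% of all tested genes were. The rest were too dim to test and of mixed sign, from -0.38 for S100b to 1.19 for Gap43. The summed signal of the 8 was 582 and 451 on the controls and 819 and 968 on fibronectin. Fat cells, which also carry this pathway, were measured by 6 of 8 listed markers, and 0 of the 6 were bright enough to be tested. Their summed signal was 222 and 245 on the controls and 221 and 412 on fibronectin. Among them Lep and Lipe were at the floor on 3 of the 4 arrays, all except fibronectin replicate 2. No marker was at the floor on all 4 arrays in any of the 7 lists. The part of these cells in the results was not tested either.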

How the data were processed

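The deposited table held 1 linear signal intensity per probe set for each of the 4 arrays. The authors' steps from scan to intensity, not given in the sources used here, left low values as whole multiples of a step, 1.95 on fibronectin replicate 2 and 0.233 or less on the others. Here arrays were quantile normalized, given a floor of 23.4 at the 20th percentile and converted to log2. Of 15875 probe sets, 9 controls and the dimmest 40% (6347) were left out and 9519 tested two-sided in limma 3.58.1 (R 4.3.3; lmFit, eBayes with trend) at a Benjamini-Hochberg threshold of 0.05. The platform annotation gave 1 symbol for 12783 probe sets, several for 312 and none for 2771, and RefSeq's GRCr8 table held the Entrez identifiers of all 34 measured genes. Members and lists were chosen with earlier results of these data known. Every measured member was named, and in each neighbouring list at most 3 genes with the largest difference without overlap. Alternatives changed the normalization, filter, floor, variance model, threshold and choice of probe set, added the replicate number as a block, or dropped 1 array. In simulated data with 9519 probe sets, limma called 0.1% of those given a log2 shift of 1, 0.8% at a shift of 2, 13.8% at 3 and 24.3% at 4. Each simulated probe set took as its true spread the one estimated within groups from its own arrays, so these shares hold only for that setting. The number of arrays limits the precision.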

Additional observations from a re-analysis of the deposited data

How the results depend on the processing

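The median log2 difference of the 34 genes stayed above 0 in all settings run, from 0.60 with an offset of 50 to 0.79 on the deposited scale, and from 0.41 to 1.12 with 1 array left out. The number called by limma stayed at 0 except that 4 passed with the replicate block (Acat2, Fdps, Cyp51 and Fasn, with adjusted p from 0.000629 to 0.0208, beside 234 of all 9519 probe sets) and 0 to 1 with 1 array left out. Same-numbered arrays deviated together with r = 0.271 over the tested probe sets and 0.50 over the 34 genes, but there are only 2 pairs and nothing in the labels pairs them. The number higher at an unadjusted p under 0.05 was 4 with no filter, 16 with the replicate block and 1 to 18 with 1 array left out. The number higher without overlap ran from 19 to 30 with 1 array left out, where the share of all tested genes also went from 20.6% to between 32.5% and 40.8%, and the number lower was 0 on the deposited scale, 0 with the stricter filter and 1 to 3 with 1 array left out. For single genes 381 of 401 recomputed differences kept direction and call, and 8 genes changed sign somewhere. That count includes settings that gave each gene its main difference again, so that its sign could not change there. These were the filters, the removal of the floor, the replicate block and the other choice of probe set. Aacs was -0.02 on the deposited scale and -0.06 with medians set equal. With 1 array left out Aacs ran from -0.57 to 0.59, Mvk from -0.13 to 0.70, Lss from -0.08 to 1.43, Scd2 from -0.70 to 0.81, Elovl5 from -0.46 to 0.22, Elovl6 from -0.85 to 0.90, Scap from -0.01 to 1.14 and Insig1 from -0.03 to 1.75. The causes were not tested. The stricter filter left 27 of the 34 genes. With 2 arrays a group, differences of the size seen here were rarely called in the simulation, under its setting of the spread.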
